A study of Homo sapiens with 21 samples.

Results

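The cytosolic ribosomal protein genes code for the proteins of the large and the small ribosomal subunit. Members were all genes on the array whose symbol has the form RPL or RPS followed by a number (with an optional suffix such as A, X, Y or L), together with RPLP1, RPLP2 and FAU. The ribosomal S6 kinases and pseudogenes were left out. This gave 78 genes, 49 of the large and 29 of the small subunit, of 20046 genes in all, read by 127 of 30113 probes that carry 1 gene. Of the members, 41 had 1 probe and 37 had several, at most 4. Members of the family outside these 78 genes were not analysed here.

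Total RNA of 21 samples of human cell lines had been hybridised to Illumina BeadChips, 1 array per sample, in 7 groups of 3. All KLE cells, which derive from an endometrial carcinoma, expressed a short hairpin RNA: shCTRL as control, 059 or 062 directed at MSH3, and 543 or 603 directed at MSH6. The arrays of each KLE group bear the letters A, B and C. HCT116 comes from a colorectal carcinoma, and MCF10A from non-tumorigenic breast epithelium, and both were present as CTRL samples with no treatment named. MSH3 and MSH6 are proteins of DNA mismatch repair that take part in recognising mismatched bases. Each of KLE, HCT116 and MCF10A is a single line, so a difference between lines is not one between tissues, and the labels do not say whether replicates were separate cultures. All p-values therefore measure the spread between these arrays.

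A ribosome holds 1 copy of nearly every one of these proteins, arranged around the ribosomal RNAs, and cells make them in step with ribosomal RNA. Their messenger RNAs are among the most abundant of growing cells and begin with a run of pyrimidines (C or T), the terminal oligopyrimidine (TOP) element, through which the mTOR kinase and the RNA-binding protein LARP1 control their translation. Several members have a paralog with narrower expression. RPL39L, the paralog of RPL39, is best known from testis, RPS4X and RPS4Y1 lie on the X and Y chromosomes, and RPS27L is a p53-induced copy of RPS27. Some members also act outside the ribosome: RPL5, RPL11 and RPL23 bind and inhibit MDM2 when ribosome assembly is disturbed.

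The sequence around the transcription start carries this element, so the starts of the genes on which the results turn are shown with their paralogs. Each window has 30 bases, 15 before the annotated start and 15 from it on, on the strand of the gene, from RefSeq on build GRCh38.p14. Capitals mark the longest run of C and T.
RPL13A (chr19:49487593-49487622, plus strand): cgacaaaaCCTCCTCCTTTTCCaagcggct
RPL21 (chr13:27251543-27251572, plus strand): cggccccgCCTCTTTCCTTTCggccggaac
RPL36A (chrX:101390996-101391025, plus strand): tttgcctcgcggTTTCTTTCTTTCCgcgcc
RPS6 (chr9:19380222-19380251, minus strand): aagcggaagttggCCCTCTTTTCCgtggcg
RPS23 (chr5:82278340-82278369, minus strand): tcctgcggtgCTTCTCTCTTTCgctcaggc
RPS26 (chr12:56041903-56041932, plus strand): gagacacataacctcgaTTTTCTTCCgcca
RPL36 (chr19:5690280-5690309, plus strand): ccgcgcggcgccagCCCTTCCgccacggcc
RPL9 (chr4:39458908-39458937, minus strand): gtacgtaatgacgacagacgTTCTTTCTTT
RPL39 (chrX:119791616-119791645, minus strand): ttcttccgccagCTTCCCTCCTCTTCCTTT
RPS27 (chr1:153990747-153990776, plus strand): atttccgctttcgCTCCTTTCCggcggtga
RPS27L (chr15:63157463-63157492, minus strand): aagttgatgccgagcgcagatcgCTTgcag
RPL22 (chr1:6199581-6199610, minus strand): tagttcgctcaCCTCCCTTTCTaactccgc
RPL22L1 (chr3:170870181-170870210, minus strand): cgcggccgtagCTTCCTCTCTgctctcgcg
RPS4X (chrX:72277234-72277263, minus strand): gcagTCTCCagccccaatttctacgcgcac
RPS4Y1 (chrY:2841587-2841616, plus strand): ggaaaagaacagaTTCTCTTCCgtcgcaga
RPL7L1 (chr6:42879601-42879630, plus strand): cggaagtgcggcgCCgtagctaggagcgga

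A run of at least 8 C or T letters, searched on the strand of the gene only, was present in 54 of 78 member windows (69.2%), which belong to 66 member genes. Among all 35115 windows of the same length in the reference table, 13.7% held such a run. The median longest run was 10 bases in members and 4 in all windows. The first transcribed base was C in 65.4% of member windows and 14.7% of all windows. Of the paralogs with a window, 2 of 7 had the run, RPL22L1 and RPS4Y1, against 49 of 59 other members. RPS27L and RPL7L1 lack it, with longest runs of 3 and 2 bases. RPL9 has its run of 10 downstream of the annotated start rather than across it. Annotated starts can lie several bases from the start used in these cells, and the windows show letters, not use. RPL23, RPL23A, RPL30, RPL37, RPL39L, RPL3L, RPL5, RPL7, RPL8, RPS15A, RPS2 and RPS20 had no window.

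Values below are log2 intensities, with 16 added before the logarithm, after quantile normalization over the 21 arrays, and each gene is read by its brightest probe. The median of all probes on this scale was 6.92, and the highest value was 14.23. Array medians of the deposited intensities lay between 87.71 and 122.2, so background remains in all values and differences of dim probes are understated. Among KLE arrays, letter A stood apart from B and C in every group. The 127 member probes took 3.63% to 4.62% of the summed intensity on the 5 A arrays and 5.03% to 5.95% on the 10 arrays of B and C. The lowest shares were those of 543 A (3.63%) and 603 A (3.68%), both MSH6 hairpin arrays. In HCT116 the share was 4.41% to 5.05%, and in MCF10A it was 4.44% to 4.76%. Results in KLE are therefore also given with the letter as a block and for letters B and C alone.

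KLE was above a log2 level of 8 for 4 of 5 Mullerian markers (PAX8, SOX17, EMX2 and MSX1, but not ESR1), and MCF10A for 3 of 3 basal breast markers (KRT5, KRT14 and LAMB3). HCT116 was above it for CDX2 alone of 6 intestinal markers, and also for MSX1. Outside these lineages, LAMB3 was above it in KLE with shCTRL (8.52), and MSX1 (8.50), the leukocyte marker CD14 (10.17) and the fibroblast marker DCN (10.84) in MCF10A. DCN also reached 8.22 in KLE with hairpin 062. The other 3 leukocyte and 2 fibroblast markers, and the endothelial markers PECAM1, CDH5 and VWF, were below it in KLE with shCTRL, HCT116 and MCF10A. Their part in the results was not tested. MSH6 had a mean log2 level of 10.81 with shCTRL, 8.69 with hairpin 543 and 9.88 with 603. The bright MSH3 probe read 13.79 with shCTRL, 13.75 with 059 and 13.59 with 062, and the dim one 8.72, 7.94 and 8.07.

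Most members were among the brightest probes of the arrays. The mean log2 intensity over the 21 arrays was at least 13 for 38 of 78 genes, at least 12 for 54 and at least 10 for 63. In 35 genes at least 1 probe lay in the top 1% of all probes on all 21 arrays. RPL41, a very short large-subunit protein, averaged 14.13, RPS27 averaged 14.01 and RPS29 averaged 13.96. These values sit against the upper end of the scale, where normalization leaves little room for a difference to show. At the lower end 8 genes averaged under 8, and 4 of them, RPL3L, RPL10, RPL10L and RPS4Y2, were at or below the median of all probes. RPL3L, a striated-muscle paralog of RPL3, ranged from 6.77 to 7.05 over the arrays. RPL10L, a testis paralog of RPL10, ranged from 6.74 to 7.04. RPL10 itself, a core protein of the large subunit, read 6.85 and 6.82 on its 2 probes. Brightness depends on the probe as well as the transcript, so the low reading of RPL10 is a statement about these probes.

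**Figure D1:**
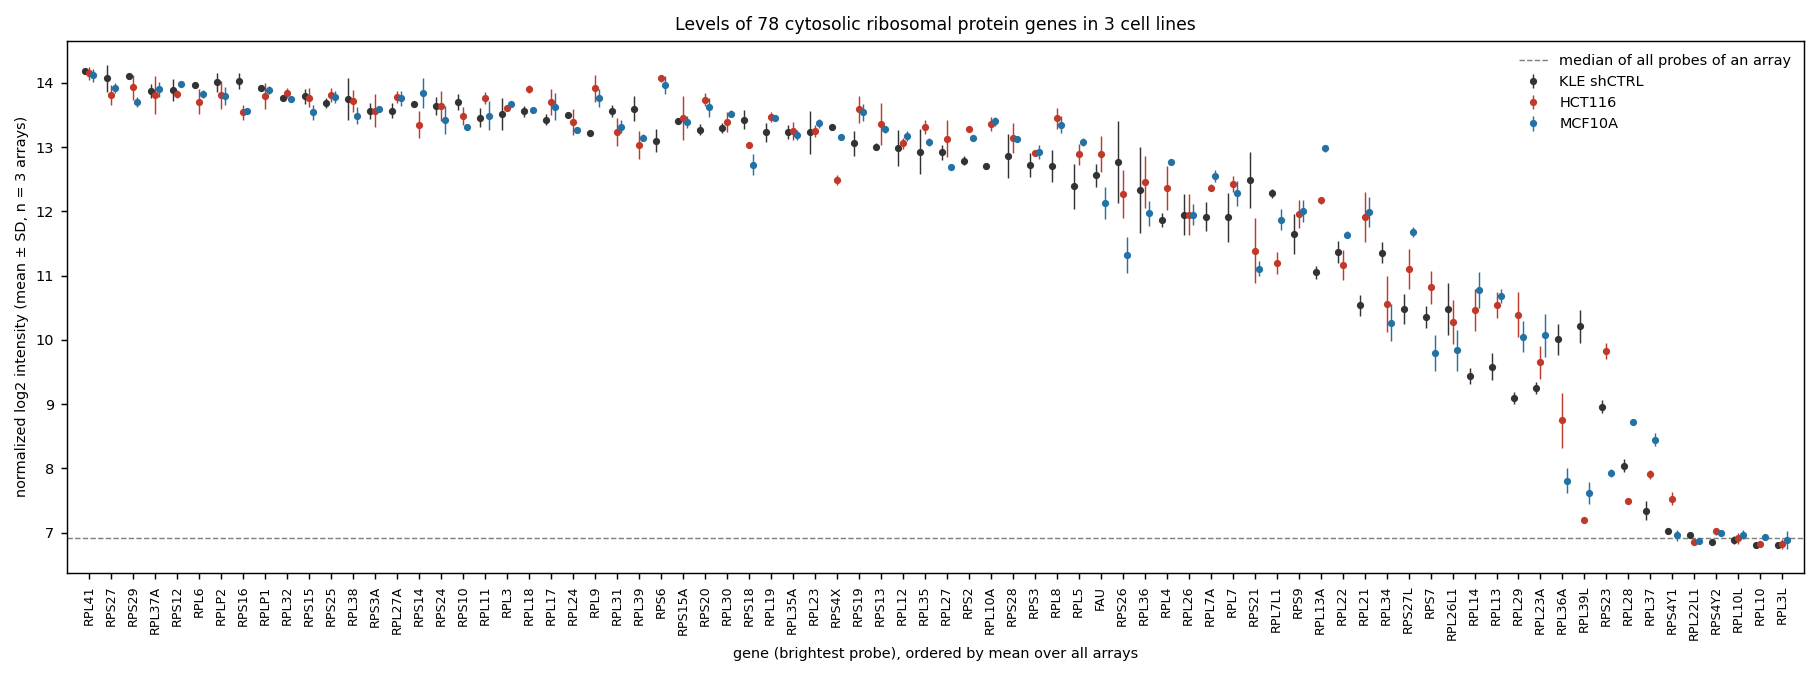
Normalized log2 intensity (y axis, mean ± SD of 3 arrays) of the 78 member genes (x axis, brightest probe, ordered by mean) in KLE with shCTRL, HCT116 and MCF10A, with the median of all probes (6.92) as a dashed line. RPL39L lies at 10.21 in KLE and at 7.19 and 7.62 in HCT116 and MCF10A, and RPL13A is lowest in KLE at 11.05.

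The lines were compared first, with KLE represented by shCTRL. These KLE cells express a control hairpin, and none is named for HCT116 and MCF10A. A difference of line from KLE therefore cannot be told apart from an effect of that hairpin. Against KLE with shCTRL, HCT116 had higher RPL21, RPL29, RPL13A and RPS6 and much lower RPL39L. Of 75 members tested, 24 were higher and 12 lower, 48% in all, against 54.4% of all 14270 genes tested, 29.3% higher and 25.1% lower (limma, Benjamini-Hochberg adjusted p below 0.05). The members' share was thus near that of all genes. The median difference was 0.099 on the log2 scale over members and 0.026 over all genes. The large subunit had 15 higher and 8 lower of 46, and the small subunit 9 higher and 4 lower of 29. With arrays scaled to a common median the split was 19 higher and 16 lower, against 25% and 21% of all genes. On the deposited scale it was 16 and 8, against 20.2% and 13%.

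MCF10A differed from KLE by as many members. It had 21 higher and 15 lower, 48% of 75, against 52.7% of all genes, 27% higher and 25.7% lower. The median difference was 0.087 over members and 0.012 over all genes. The large subunit had 15 higher and 6 lower, and the small subunit 6 higher and 9 lower. Median scaling turned the split to 13 higher and 22 lower, with a member median of -0.157, against 20.5% and 21.4% of all genes. The deposited values gave 11 and 11, with a median of -0.112, against 15.6% and 12.8%. The direction of the family as a whole between these lines thus depends on the scaling. The 5 largest rises and falls of each contrast kept their direction in all alternatives, but were picked for their size in these data. Both contrasts use the same KLE arrays. With the replicate number as a block, the counts were 34 in HCT116 and 32 in MCF10A, against 51.9% and 49.8% of all genes.

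**Figure D2:**
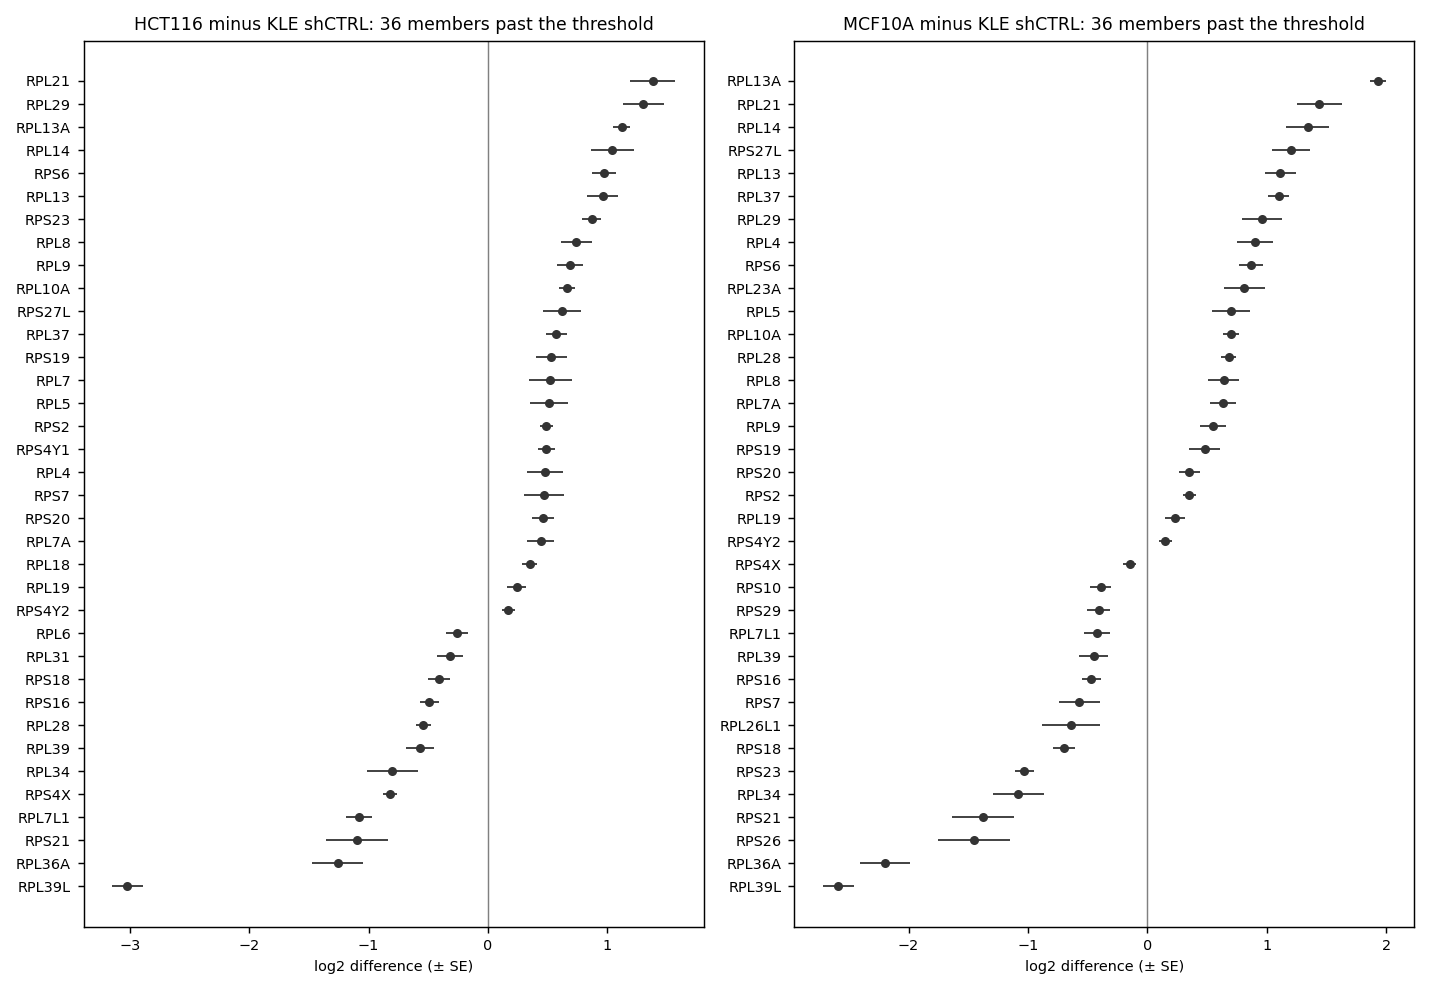
Log2 difference from KLE with shCTRL (x axis, ± SE, 3 arrays per line) of each member past the threshold in HCT116 (left, 36 genes) and MCF10A (right, 36 genes), ordered by size. RPL39L lies farthest below 0 in both panels (-3.02 and -2.59), RPL21 highest on the left (1.38) and RPL13A highest on the right (1.93).

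Of the members tested, RPL39L had the largest difference of both HCT116 and MCF10A from KLE. RPL39L, which replaces RPL39 in the exit tunnel of some ribosomes, read 9.93, 10.42 and 10.29 on the shCTRL arrays. In HCT116 it read 7.20, 7.21 and 7.16, and in MCF10A 7.50, 7.55 and 7.81. All other KLE arrays lay between 9.32 and 10.51, so every KLE array was above every array of the other lines. The log2 difference was -3.02 in HCT116 (SE 0.13, adjusted p = 7.6e-08) and -2.59 in MCF10A (SE 0.13, adjusted p = 1.9e-07). The HCT116 readings lie close to the median of all probes, 6.92, so the difference is a limit and the true one may be larger. The second probe was also higher on all KLE arrays (9.15 to 9.87) than in MCF10A (7.38 to 7.61), and in HCT116 it read 6.88 to 6.93, at that median, which gives a limit only. HCT116 and MCF10A also differed, by -0.43 (SE 0.13, adjusted p = 0.022), at levels close to the median of all probes. The parent gene RPL39 read 13.39, 13.75 and 13.66 with shCTRL, 12.90, 13.29 and 12.92 in HCT116 and 13.20, 13.12 and 13.12 in MCF10A. It too was lower, by a log2 difference of -0.57 in HCT116 (SE 0.12, adjusted p = 0.0031) and -0.45 in MCF10A (SE 0.12, adjusted p = 0.011).

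RPS4X, the X-linked form of a small-subunit protein, was lowest in HCT116. It read 12.55, 12.41 and 12.51 there, 13.18, 13.16 and 13.14 in MCF10A and 13.29, 13.31 and 13.33 with shCTRL. These groups did not overlap. Of the KLE arrays with other hairpins, 543 A (13.15) lay within the range of MCF10A and 062 A (12.87) below it. HCT116 stood at 0.566 times the KLE level (log2 difference -0.82, SE 0.056, adjusted p = 1.9e-06) and MCF10A at 0.902 times (-0.15, SE 0.056, adjusted p = 0.049). Its second probe gave -0.77 and -0.04, the latter not past the threshold. With the replicate number as a block, the MCF10A difference of the first probe did not pass (adjusted p = 0.086). RPS4Y1, the Y-linked form, read 7.64, 7.52 and 7.44 in HCT116, 7.04, 6.87 and 6.98 in MCF10A and 7.09, 7.01 and 7.0 with shCTRL. It was higher in HCT116 than in KLE by 0.49 (SE 0.072, adjusted p = 0.00028), all of this near the median of all probes. RPS4Y2 differed by 0.17 and 0.15 at levels between 6.83 and 7.07, which are background readings.

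RPS27L read 11.04, 11.43 and 10.82 in HCT116, 11.63, 11.64 and 11.76 in MCF10A and 10.23, 10.68 and 10.52 with shCTRL. It was higher than in KLE by 0.62 in HCT116 (SE 0.16, adjusted p = 0.0072) and 1.2 in MCF10A (SE 0.16, adjusted p = 0.00015). Its parent RPS27, whose brightest probe lies at the top of the scale, differed on that probe by -0.26 (adjusted p = 0.078) and -0.15 (adjusted p = 0.3). The dimmest RPS27 probe had group means of 13.18 with shCTRL, 12.44 in HCT116 and 12.69 in MCF10A. The remaining RPS27 probe had 13.57, 13.2 and 13.28. RPL7L1, a paralog that takes part in assembly of the large subunit, read 11.05, 11.39 and 11.16 in HCT116 and 12.23, 12.25 and 12.37 with shCTRL. That was a log2 difference of -1.08 (SE 0.11, adjusted p = 2.1e-05), and -0.42 for MCF10A (adjusted p = 0.0085). RPL7 was 0.52 higher in HCT116 (SE 0.18, adjusted p = 0.03, but 0.059 with the replicate number as a block) and did not pass in MCF10A. RPL26L1 was lower in MCF10A by a log2 difference of -0.64 (SE 0.24, adjusted p = 0.047, but 0.051 with that block). RPL26 differed by 0.00 in both lines. RPL22L1, at 6.83 to 7.13 on all arrays, and RPL3L and RPL10 were not bright enough to be tested between lines. On their brightest probes, RPL22 and RPL3 differed from KLE in neither line at the threshold. A second RPL3 probe read 13.11, 13.03 and 12.93 with shCTRL. It read higher on every array of HCT116 (13.47, 13.18 and 13.56) and of MCF10A (13.89, 13.86 and 14.06).

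**Figure D3:**
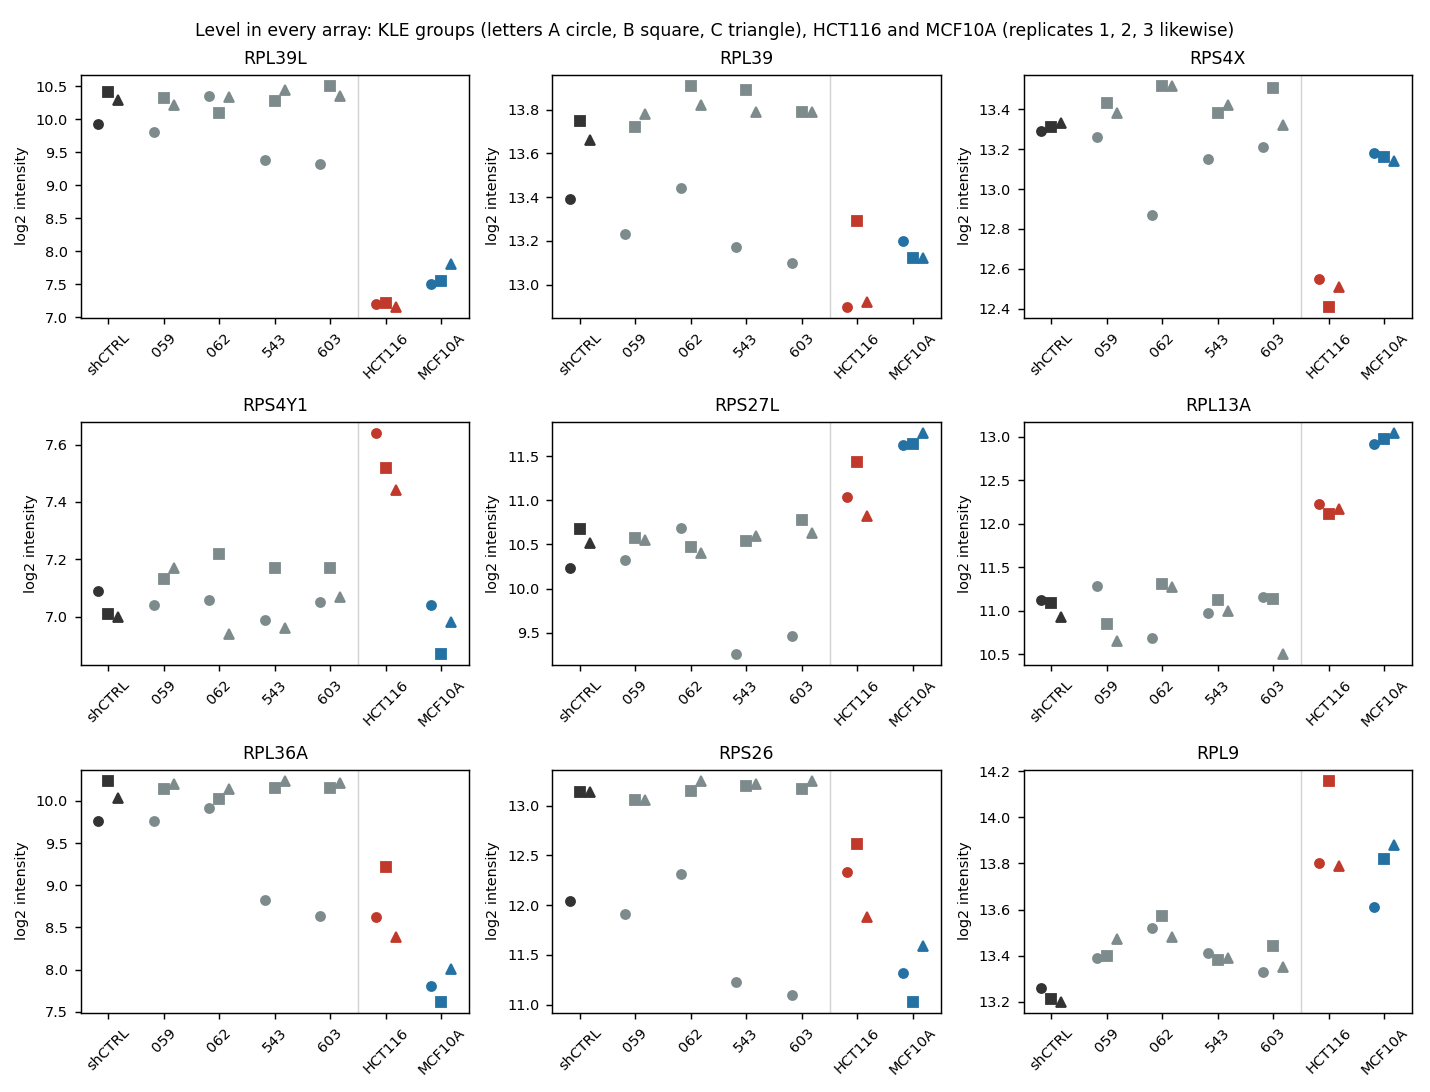
Normalized log2 intensity (y axis) on every array for 9 members (panels), by group (x axis), with KLE letters A, B and C as circle, square and triangle and replicates 1, 2 and 3 of HCT116 and MCF10A likewise. RPL39L is high on all 15 KLE arrays, RPL13A on the HCT116 and MCF10A arrays, and RPS26 is low on the 5 A arrays of KLE (11.10 to 12.31).

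The members that follow have no paralog among the genes analysed here. RPL13A of the large subunit, known from translational control in the interferon response, read 11.12, 11.09 and 10.93 with shCTRL. It read 12.23, 12.11 and 12.17 in HCT116 and 12.92, 12.97 and 13.04 in MCF10A. The 3 lines were fully separated. RPL13A was 2.17 times the KLE level in HCT116 (log2 difference 1.12, SE 0.069, adjusted p = 9.9e-07) and 3.80 times in MCF10A (1.93, SE 0.069, adjusted p = 2.4e-08). RPL21 read 10.73, 10.47 and 10.44 with shCTRL, 11.86, 12.34 and 11.57 in HCT116 and 11.88, 11.82 and 12.26 in MCF10A. Its log2 difference from shCTRL was 1.38 in HCT116 (SE 0.19, adjusted p = 0.00021) and 1.44 in MCF10A (SE 0.19, adjusted p = 0.00017). KLE arrays with other hairpins read 10.26 to 11.56, so the highest of them lay next to the lowest HCT116 array. RPL29, which was first described as a heparin-binding protein, differed by 1.30 (adjusted p = 0.00016) and 0.96 (adjusted p = 0.0013). It too was higher on some other KLE arrays, up to 9.79, beside 9.82 on the lowest MCF10A array. RPL14 differed by 1.04 and 1.34 and RPL13 by 0.96 and 1.11, all past the threshold. The second probe of RPL14 gave 0.12 and 0.34, neither past it.

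RPL36A, an X-linked protein of the tRNA exit site, went the other way. It read 9.76, 10.24 and 10.03 with shCTRL, 8.62, 9.22 and 8.39 in HCT116 and 7.80, 7.62 and 8.01 in MCF10A. HCT116 had 0.417 times the shCTRL level (log2 difference -1.26, SE 0.21, adjusted p = 0.00063) and MCF10A 0.218 times (-2.20, SE 0.21, adjusted p = 1.7e-05). The KLE arrays 543 A (8.82) and 603 A (8.64) lay within the range of HCT116. The second RPL36A probe was at background. RPL34 differed by -0.80 (adjusted p = 0.01) and -1.08 (adjusted p = 0.0021), but its second probe by -2.10 and -0.24. Between HCT116 and MCF10A these probes gave 0.28, not past the threshold, and -1.87, past it.

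In the small subunit RPS6, the main substrate of the S6 kinases, read 13.28, 12.92 and 13.10 with shCTRL, 14.08, 14.02 and 14.12 in HCT116 and 13.99, 14.10 and 13.83 in MCF10A. It was higher by 0.97 (SE 0.1, adjusted p = 3e-05) and 0.87 (SE 0.1, adjusted p = 6.5e-05), with no overlap between KLE and either line. RPS21 read 12.80 and 12.67 on the shCTRL arrays B and C and less, 12, on A, with 11.26, 11.95 and 10.97 in HCT116 and 11.09, 11.00 and 11.24 in MCF10A. Its log2 difference was -1.10 (SE 0.26, adjusted p = 0.0056) and -1.38 (SE 0.26, adjusted p = 0.0016). RPS26, which contacts messenger RNA at the exit channel of the small subunit, read 12.04, 13.14 and 13.14 with shCTRL and 11.32, 11.03 and 11.59 in MCF10A. Its difference was -1.45 (SE 0.3, adjusted p = 0.0029). The low shCTRL value of both RPS21 and RPS26 was that of letter A, which stood apart as described above. RPS21 read 11.18 on 543 A and 11.32 on 603 A, within the range of HCT116. RPS26 read 11.23 and 11.10 on these arrays, within the range of MCF10A.

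The stalk proteins RPLP1 and RPLP2, which recruit the translation factors, did not pass in any line comparison on their brightest probes. RPLP1 had group means of 13.80 in HCT116, 13.89 in MCF10A and 13.92 with shCTRL, and RPLP2 had 13.81, 13.79 and 14.01. The dimmest RPLP1 probe read 13.08, 13 and 12.94 with shCTRL. It was lower on every MCF10A array (12.27, 12.21 and 12.6), but HCT116 (12.42, 13.02 and 11.84) overlapped shCTRL. The remaining RPLP1 probe overlapped shCTRL in both lines, with 13.08, 13.39 and 13.52 for shCTRL. It read 13.19, 13.13 and 12.9 in HCT116 and 13.07, 12.9 and 13.1 in MCF10A. Of the MDM2-binding proteins, RPL5 was higher than in KLE by 0.51 in HCT116 (SE 0.16, adjusted p = 0.021) and 0.70 in MCF10A (SE 0.16, adjusted p = 0.0043). RPL11 differed by 0.30 (adjusted p = 0.056) and 0.03, and RPL23 by 0.02 and 0.14, none past the threshold. FAU, whose product is a small-subunit protein fused to a ubiquitin-like domain, differed from KLE by 0.33 (adjusted p = 0.13) and -0.44 (adjusted p = 0.053).

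Between HCT116 and MCF10A 9 members were higher in HCT116 and 10 lower, 25.3% of 75, against 41.5% of all genes, 22.6% higher and 18.9% lower, and 18 passed with the replicate number as a block, against 38.8%. The member median was 0.018 and that of all genes 0.017. With median scaling the split was 9 and 5, against 18.2% and 13.4% of all genes, and on the deposited scale 7 and 3, against 11.7% and 8.77%. RPS23, a protein of the decoding centre, read 9.92, 9.70 and 9.87 in HCT116, 7.99, 7.93 and 7.88 in MCF10A and 9.06, 8.85 and 8.97 with shCTRL. The 3 lines were fully separated, with HCT116 at 3.73 times the MCF10A level (log2 difference 1.90, SE 0.079, adjusted p = 9.4e-08). RPL28 ran in the opposite order, with 7.47, 7.51 and 7.51 in HCT116 and 8.75, 8.68 and 8.74 in MCF10A, a difference of -1.23 (SE 0.064, adjusted p = 4.3e-07). RPS7, another MDM2-binding protein, was 1.03 higher in HCT116 (SE 0.17, adjusted p = 0.00077), RPS26 0.96 (adjusted p = 0.031), RPL36A 0.94 (adjusted p = 0.0051) and FAU 0.77 (adjusted p = 0.0046). The RPS26 call was lost in 5 of 19 alternatives (adjusted p up to 0.25), namely without HCT116 replicate 1 or 2, without MCF10A replicate 1 or 2, and with all 21 arrays in 1 fit, where that of RPL36A was lost too (adjusted p = 0.074). RPL13A, RPS4X, RPL7L1, RPS27L, RPL22 and RPL39L were lower, by log2 differences between -0.81 for RPL13A and -0.43 for RPL39L. On the deposited scale the calls of RPL13A, RPS4X, RPL7L1 and RPS27L were lost, and those of the last pair with median scaling as well. That of RPS27L was also lost with all 21 arrays in 1 fit and without HCT116 replicate 1. The large subunit had 3 higher and 7 lower, and the small subunit 6 and 3.

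Read by all 122 member probes tested, 61 probes differed between HCT116 and KLE (42 higher), 56 between MCF10A and KLE (33 higher) and 39 between HCT116 and MCF10A (19 higher). The corresponding shares of all probes were 51.7%, 50% and 39.3%. Of 35 genes with several tested probes, 25, 26 and 23 had the same sign on all probes in these contrasts. RPS29 had probes called in opposite directions for MCF10A against KLE: -0.41 on the brightest, with group means of 13.70 and 14.11, and 1.17 on a dim probe. Its 2 other probes gave -0.14 and -0.38.

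Genes that make or use ribosomes were read for the same contrasts, from lists of textbook members. Their counts stand against 54.4% of all genes past the threshold in HCT116 (29.3% higher and 25.1% lower), 52.7% in MCF10A (27% and 25.7%) and 41.5% between HCT116 and MCF10A (22.6% and 18.9%). Of 11 genes of RNA polymerase I and its factors, 8 were higher and 0 lower in HCT116 than in KLE, with POLR1E at 1.39 and POLR1D at 1.36 on the log2 scale. In MCF10A 5 were higher and 1 lower, near the share of all genes. Of 49 assembly factors tested, 34 were higher and 4 lower in HCT116, with a median of 0.71, and 18 and 12 in MCF10A, with a median of 0.10, the latter near the share of all genes. BOP1 and PES1, partners in a complex that matures the large subunit, were higher in HCT116 by 2.64 (SE 0.19, adjusted p = 2.5e-06) and 1.96 (SE 0.15, adjusted p = 3.7e-06). Both were also higher on the A arrays of KLE than on B and C, by 1.01 and 0.79. Fibrillarin (FBL), the methyltransferase of ribosomal RNA, was lower, by log2 differences of -1.86 in HCT116 and -2.28 in MCF10A. Between HCT116 and MCF10A 35 assembly factors were higher and 1 lower, with a median of 0.54. The ribosomal protein genes themselves had a median of 0.018 in that contrast.

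Of 15 translation factors and other genes with TOP messenger RNAs, 10 were higher and 1 lower in HCT116 than in KLE, and 11 and 1 in MCF10A, beside the shares of all genes just given. EEF1D, of the elongation factor exchange complex, was higher by 1.29 and 1.5, and PABPC1, the poly(A)-binding protein, by 1.09 and 1.29. The lower gene in HCT116 was VIM, the intermediate filament vimentin, at -5.12. Among 7 regulators tested MYC, which drives ribosome synthesis, was higher by 2.12 in HCT116 (SE 0.14, adjusted p = 1.6e-06) and 2.75 in MCF10A (SE 0.14, adjusted p = 2.5e-07), whereas MTOR differed by -0.77 and -1.08. Of 18 p53 targets, 9 were higher and 2 lower in HCT116, a count near the 54.4% of all genes, and 14 and 1 in MCF10A, against 52.7%. CDKN1A, the cell cycle inhibitor p21, differed by 2.97 and 3.91.

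In KLE the hairpins were compared with shCTRL. With hairpin 059, 0 of 75 members passed, against 0.397% of all 14872 genes, and 3 had an unadjusted p below 0.05. With 543 and 603 the count was also 0, against 0.323% and 2.17% of all genes, with 4 and 5 at an unadjusted p below 0.05. With 062 the count was 1, RPL9, against 0.343% of all genes, with 5 at an unadjusted p below 0.05. Member medians were 0.002 for 059, 0.049 for 062, -0.080 for 543 and -0.075 for 603, and those of all genes -0.008, -0.006, -0.001 and 0.003. The 4 contrasts share the shCTRL arrays.

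RPL9, a large-subunit protein at the base of the stalk, read 13.26, 13.21 and 13.20 with shCTRL for letters A, B and C. With hairpin 062 it read 13.52, 13.57 and 13.48, and with 059 13.39, 13.40 and 13.47. With 543 it read 13.41, 13.38 and 13.39, and with 603 13.33, 13.44 and 13.35. On this probe, the brightest, all 12 hairpin arrays were above all 3 shCTRL arrays. The log2 change was 0.30 with 062 (SE 0.048, adjusted p = 0.022). It was 0.20 with 059 (adjusted p = 0.15), 0.17 with 543 (adjusted p = 0.33) and 0.15 with 603 (adjusted p = 0.18). The other RPL9 probes changed by 0.22 and 0.23 with 062, neither past the threshold, and did not separate the arrays. On the brighter of them shCTRL A (12.93) was above all hairpin arrays but 062 A (12.98). On the dimmer, 059 B (8.99) and 543 A (8.98) were below shCTRL A (9.04). The 062 call was lost in 11 of 26 alternatives, among them both other scalings. Over the 26 the change ranged from 0.10 to 0.32. Omission of shCTRL B or C or of 062 B or C also lost it. Of the arrays compared, only shCTRL A or 062 A could thus be left out with the call kept. Some of the 26 omit arrays of 059, 543 or 603, which hardly enter this contrast.

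In the fit that took the letter as a block, 1 member passed with 543 and 1 with 603, against 1.06% and 6.84% of all genes. With 059 it was 0, against 1.45%, and with 062 it was RPL9 again (adjusted p = 0.021), against 1.3%. RPS6 was 0.39 higher with 543 (SE 0.073, adjusted p = 0.029), and RPL13 changed by -0.87 with 603 (SE 0.18, adjusted p = 0.014). RPL13 read 9.80, 9.55 and 9.38 with shCTRL and 9.12, 8.77 and 8.23 with 603, so the groups did not overlap, but its second, dimmer probe gave 0.24 in the fit without the block.

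For letters B and C alone, a setting chosen after the data were seen, 6 members passed with 059, against 12.3% of all genes. The counts were 15 with 062 against 17.6%, 6 with 543 against 5.49% and 9 with 603 against 17.7%. The share of the 74 members tested was thus below that of all genes with 059 and 603 and above it with 062 and 543. With 2 arrays a group the spread is that between B and C, which may be technical. RPL21 and RPL26 are named here because they passed with all 4 hairpins in this setting, contrasts that share shCTRL B and C. RPL21 read 10.47 and 10.44 with shCTRL, 11.09 and 11.19 with 059, 11.44 and 11.56 with 062, 11.25 and 11.29 with 543, and 11.29 and 11.17 with 603. Its change was between 0.69 with 059 (SE 0.077, adjusted p = 9.6e-05) and 1.05 with 062 (SE 0.077, adjusted p = 1.1e-06). On the A arrays the order was different, with 10.73 for shCTRL, 10.82 for 059, 11.07 for 062, 10.34 for 543 and 10.26 for 603. RPL26 changed by 0.39, 0.54, 0.54 and 0.45 with 059, 062, 543 and 603 in this setting. On the A arrays RPL26 read 11.58 with shCTRL, 11.75 with 059, 11.97 with 062, 11.44 with 543 and 11.34 with 603. Over all letters RPL26 did not pass with any hairpin. The adjusted p values of RPL21 over all letters were 0.84, 0.43, 0.99 and 0.74.

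The MSH3 hairpins were set against the MSH6 hairpins, which needs no shCTRL array. With 0 of 75 members past the threshold against 2.08% of all genes, and 11 at an unadjusted p below 0.05, the member median was 0.107 and that of all genes -0.008. Of the 75 members, 56 were higher with the MSH3 hairpins. Within letter A the member median was 0.281, with 58 of 75 members higher. Within letter B it was -0.007, with 36 higher, and within C it was 0.038, with 48 higher. The offset thus lay mainly in letter A, where 543 A and 603 A had the lowest member shares of all arrays, and was 0.020 with letters B and C alone. Its part in the median over all letters was not tested beyond these values. The member medians of 543 and 603 against shCTRL followed the same division, with -0.237 and -0.281 in letter A, -0.004 and 0.034 in B and 0.049 and -0.013 in C.

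**Figure D4:**
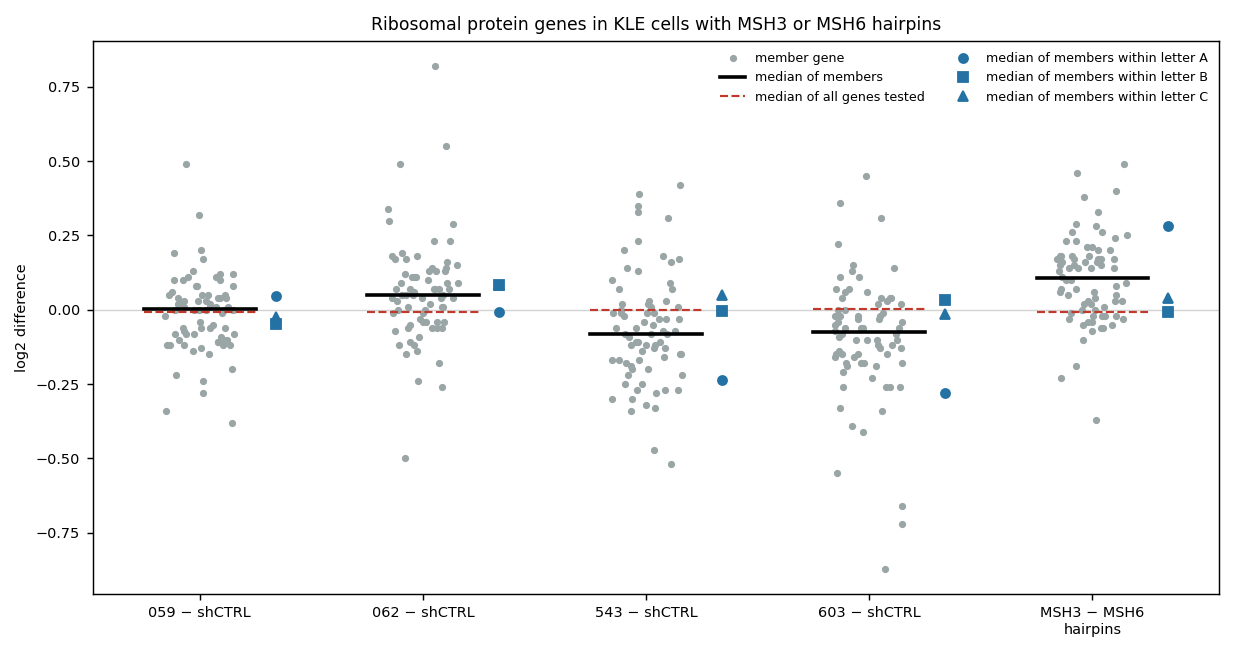
Log2 difference (y axis) of each of 75 members in 5 KLE contrasts (x axis, grey points), with the median of members (black line), the median of all genes (dashed line) and the member median within each letter (blue symbols). Letter A medians of 543 and 603 (-0.237 and -0.281) and of MSH3 against MSH6 hairpins (0.281) lie away from those of B and C.

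With the letter as a block 2 members passed between MSH3 and MSH6 hairpins, against 8.9% of all genes: RPS15A at 0.28 (SE 0.074, adjusted p = 0.037) and RPL10A at 0.23 (SE 0.062, adjusted p = 0.04), both of them higher with the MSH3 hairpins. For letters B and C alone 8 members passed, 4 in each direction, against 17.5% of all genes, 8.51% higher and 8.97% lower. RPS7, which had the lowest adjusted p of these, read 10.08, 10.19, 10.15 and 10.04 on the 4 MSH3 arrays of letters B and C. On the MSH6 arrays it read 10.76, 10.83, 10.54 and 10.79. There was no overlap, and the log2 difference was -0.61 (SE 0.069, adjusted p = 3.6e-05). On the A arrays RPS7 read 10.62 and 10.73 with the MSH3 hairpins and 10.46 and 10.67 with the MSH6 hairpins. Over all letters its difference was -0.37 (SE 0.13, adjusted p = 0.22). RPL29 and RPL34 were lower and RPL13 and RPS15A higher with the MSH3 hairpins in the same setting, by -0.32, -0.32, 0.44 and 0.18. These genes were named after their values were seen. Second probes of RPL34, RPL13 and RPL29 overlapped between the MSH3 and MSH6 arrays of B and C. They read 10.59 to 10.77 and 10.53 to 10.84 for RPL34, and 8.18 to 8.36 and 8.22 to 8.61 for RPL13. For RPL29 they read 9.18 to 9.66 and 9.58 to 9.75. The other RPS15A probes were higher on all these MSH3 arrays than on all these MSH6 arrays.

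Of the lists for ribosome synthesis, none of the genes passed in any of the 4 hairpin contrasts with shCTRL. Between MSH3 and MSH6 hairpins, where 2.08% of all genes passed, 3 of 49 assembly factors were lower with the MSH3 hairpins, NCL (nucleolin) at -0.35, PNO1 at -0.27 and DDX56 at -0.24, and among the regulators MTOR was, at -0.32 (SE 0.055, adjusted p = 0.011). RNA polymerase I, TOP translation factor and p53 target genes had 0 calls.

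The letter was then read as a contrast of its own, A against the mean of B and C within the 5 KLE groups. Of 75 members 11 were higher and 34 lower in A, 60%, against 39.7% of all genes (23.1% higher and 16.6% lower). RPL13, counted as higher at 0.33 (adjusted p = 0.047), had a second probe called in the opposite direction. The member median was -0.153, and that of all genes 0.014. The small subunit had 1 higher and 15 lower of 28, and the large subunit 10 and 19 of 47. The split was 19 and 24 with median scaling, against 47.7% higher and 4.89% lower of all genes. It was 21 and 9 on the deposited scale, against 56.5% and 1.46%, where the median of all genes was itself 0.277 and that of members 0.063. The member median less that of all genes was -0.167 after quantile normalization and -0.214 under both other scalings. Median scaling shifts each array by a constant, so it could not give another offset than the deposited scale. In all 5 groups 24 of 75 members (32%) were lower in A and 6 (8%) were higher, beside 16.5% and 21.9% of all genes.

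RPS26 read 12.04, 11.91, 12.31, 11.23 and 11.10 on the A arrays of shCTRL, 059, 062, 543 and 603, and between 13.06 and 13.25 on the 10 arrays of B and C. There was no overlap, and the log2 difference was -1.45 (SE 0.15, adjusted p = 1.4e-05). A second, dim RPS26 probe differed by 0.04. RPL36 read 11.56, 11.78, 11.78, 10.53 and 10.71 on the A arrays and 12.42 to 12.84 on the others, a difference of -1.33 (SE 0.15, adjusted p = 2.6e-05). RPS21, RPL26 and RPS28 followed, with -0.92, -0.90 and -0.81, each lower in A in all 5 groups. The lowest value of RPS26, RPL36, RPS21, RPL26 and RPS28 was on 543 A or 603 A in each case.

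Other members were higher in A. RPL8, next to the peptidyl transferase centre, differed by 0.58 (SE 0.15, adjusted p = 0.0073), RPL35, at the tunnel exit, by 0.46 (SE 0.065, adjusted p = 0.00014) and RPL5 by 0.41 (SE 0.082, adjusted p = 0.0018). RPL7A and RPL7L1 differed by 0.38 and 0.37, but the RPL7L1 call was lost in 9 of 24 alternatives, 7 of them the omission of 1 array (059 C, 062 A, 062 B, 062 C, 543 C, 603 A or 603 C). With the mean over probes neither RPL7L1 nor RPL8 passed, the latter at 0.21. RPL35 read 12.82 to 13.41 on the A arrays and 12.54 to 12.83 on those of B and C. RPL9 and RPL13A did not pass, at -0.01 and 0.06. Without 543 A and 603 A, a choice made after the data were seen, 8 members were higher and 20 lower, against 30.7% of all genes, 17.7% higher and 13% lower, and RPS26 still differed by -1.05 and RPL36 by -0.95. RPL8 (adjusted p = 0.076) and RPL7L1 (adjusted p = 0.18) no longer passed. What the letter stands for is not given in the labels. The letter was balanced over the KLE groups, but shCTRL A, B and C enter the line comparisons, where leaving out shCTRL A gave 39 calls for HCT116 against KLE and leaving out shCTRL B gave 29, in place of 36.

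**Figure D5:**
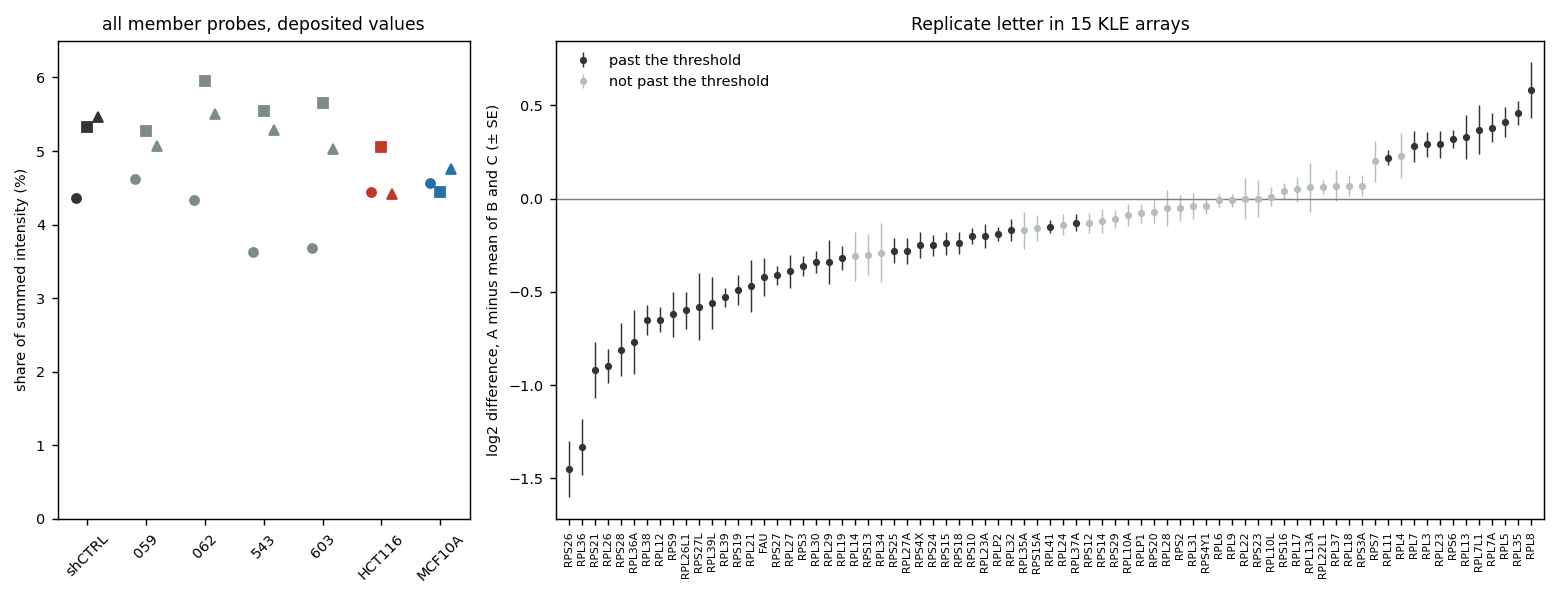
Left, share of summed deposited intensity held by the 127 member probes (y axis, %) on every array by group (x axis), with letters A, B and C as circle, square and triangle. Right, log2 difference of A from the mean of B and C (y axis, ± SE, 15 KLE arrays) for 75 members (x axis). The 5 A arrays, at 3.63% to 4.62%, lie below all 10 of B and C, and RPS26 and RPL36 are the lowest genes.

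Member genes also varied more between arrays of a group than genes in general, in a comparison not matched for brightness. Most members are bright, and differences of dim probes are understated. The part of brightness in this gap was not tested. In the KLE fit the median residual SD was 0.212 for members and 0.127 for all genes, and with a term for the letter it was 0.138 and 0.0977. In the line fit it was 0.165 and 0.103.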

How the data were processed

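Per the labels, total RNA was extracted with an RNeasy kit and labelled by the standard Illumina protocol. The deposited table holds an untransformed intensity for each probe. The submitters' processing notes name GenomeStudio, without a version. They range from 66.27 to 24678 and show no background subtraction or normalization between arrays. All 21 columns were used.

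Of 47323 probes, 30113 carry 1 gene in GEO's platform annotation, 8 several and 17202 none, and the last 2 kinds stayed out of all counts. Symbols were checked through Entrez identifiers against RefSeq, which changed 0. Log2 was taken after adding 16, followed by quantile normalization. A probe entered a fit when it exceeded the array median on 3 or more of its arrays, and the brightest probe per gene was used. Of 78 members 75 were tested in each fit. Differences were tested with limma 3.58.1 in R 4.3.3 (lmFit, eBayes, two-sided), with Benjamini-Hochberg adjustment over all genes and a threshold of 0.05. The 15 KLE arrays shared 1 fit (14872 genes), and the 9 arrays of HCT116, MCF10A and KLE shCTRL another (14270 genes). The fitting code was tested on simulated data.

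Residuals of KLE arrays with the same letter correlated with a median r of 0.69, 0.53 and 0.57 for A, B and C. Between letters the median r was -0.6 for A with B, -0.62 for A with C and 0.53 for B with C. The residuals thus set A apart but did not separate B from C. A fit with the letter as a block is given beside a result where it changes a call. The numbers of HCT116 and MCF10A samples do not pair (0.048, -0.22 and -0.28).

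The members and gene lists were chosen with earlier results of these data known. Named members are RPLP1, RPLP2, FAU, RPL5, RPL11, RPL23, the paralogs with their parents, the 5 largest rises and falls past the threshold per comparison, and the 3 brightest and 3 dimmest. Others are said to be named after their values were seen, or illustrate a probe disagreement.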

Additional observations from a re-analysis of the deposited data

How the results depend on the processing

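In the comparison of hairpin 062 with shCTRL, 1 member passed, and the count was 0 with median scaling, on the values as deposited, with normexp background correction, with a filter at the 75th percentile, with the mean over probes, with all 21 arrays in 1 fit and with only the groups compared. With the replicate block the count went from 0 to 1 for 543 and for 603 and from 0 to 2 for MSH3 against MSH6 hairpins, and in a single fit of all 21 arrays it was 1 for 603. For letters B and C alone it was 6 for 059, 15 for 062, 6 for 543, 9 for 603 and 8 for MSH3 against MSH6 hairpins. Leaving out arrays 543 A and 603 A took the letter count from 45 to 28. On the values as deposited, MCF10A against KLE had 22 calls in place of 36 and HCT116 against MCF10A 10 in place of 19, and the latter had 12 with all 21 arrays in 1 fit. Leaving out 1 array at a time gave 0 to 0 calls for 059, 0 to 1 for 062, 0 to 0 for 543, 0 to 1 for 603, 0 to 1 for MSH3 against MSH6 hairpins, 37 to 51 for the letter, 29 to 39 for HCT116 against KLE, 31 to 43 for MCF10A against KLE and 14 to 22 for HCT116 against MCF10A. The replicate block gave 34, 32 and 18 calls in the line comparisons. The causes of these shifts were not tested. Of the 41 named calls, 28 passed in all their alternatives and 0 changed direction. These calls were picked as the largest in the same data. Some alternatives omit arrays outside the contrast, which leaves its estimate nearly as it was. The counts are therefore no separate test of the calls. With median scaling the median of all genes shifted to -0.133 for 059 and to 0.151 for the letter. The number of arrays, background left in dim probes and the top of the scale for bright ones limit what could be detected.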
